A study of Homo sapiens with 10 samples.

Results

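Genes listed under a LINC symbol, the provisional name given to a long intergenic non-coding RNA, were compared between 2 populations of SW480 cells sorted by FACS on the surface receptor ROBO1. SW480 is a line from a human colorectal adenocarcinoma, labelled wild type in each sample and grown in serum. The cells positive for ROBO1, labelled SW480-CBC, are called ROBO1pos here, and the negative cells, labelled SW480-RSC, are called ROBO1neg. Each population gave 5 libraries of polyadenylated RNA, numbered 1 to 5. Whether the 5 were separate cultures is not stated, so every p-value below reflects the spread among libraries, which may be technical. Both populations come from 1 line.

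The members were selected on 2 criteria: a symbol made of LINC and digits, and a raw count of at least 250 summed over the 10 libraries. Of 876 such symbols listed, 351 had 0 counts in every library, 525 had at least 1, and 140 met the minimum. They were chosen by their summed counts, which do not use the contrast between the populations. A member that met the minimum through its counts in 1 population had to differ, however, so shares of members called are given as a description beside those of all genes with the same minimum. Every one of the 140 also passed the filter on low counts used for testing. Just inside the minimum were LINC01431 with 250 counts (138 in ROBO1pos and 112 in ROBO1neg) and LINC01594 with 251 (167 and 84). Just outside were LINC00683 with 249 (217 and 32) and LINC00622 with 249 (156 and 93).

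Long intergenic non-coding RNAs are made by RNA polymerase II from loci between protein-coding genes, and most are capped, spliced and polyadenylated like mRNAs. They are known for low levels and for expression restricted to few cell types. Some act on a neighbouring gene, others bind proteins elsewhere in the cell, and for most no function is known. A LINC number is a placeholder, and a locus is renamed once a function or a short reading frame is described. In the RefSeq gene table for GRCh38.p14, 104 members kept their symbol, and for 36 the LINC symbol is an older name. Present symbols include NORAD for LINC00657, CYTOR for LINC00152 and PURPL for LINC01021. The table gives 126 members as long non-coding RNAs, 12 as protein-coding and 2 as transcribed pseudogenes. Names in brackets below are these present symbols.

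The 8 RNAs with the steepest differences in each direction, named below, averaged under 1 CPM (counts scaled to a common library size, with TMM factors) in their lower population. Promoters are shown for 4 of these RNAs, to give the letters at the start of genes that differed this far: LINC00173, with the steepest negative log2 fold change, LINC01021, which had the most reads of those higher in ROBO1pos, and LINC00346 and LINC01268, in which a searched motif was found. Each runs 5′ to 3′ on the gene's strand from 250 bases before the RefSeq start to 50 after it (GRCh38.p14). Capitals mark the AP-1 motif TGANTCA in LINC00346 and the TCF/LEF motif CTTTGA in LINC01268, on either strand. LINC00173 lies at chr12:116533172-116533471 on the plus strand, LINC00346 at chr13:110870259-110870558 on the minus strand, LINC01021 at chr5:27472042-27472341 on the plus strand and LINC01268 at chr6:113873298-113873597 on the minus strand.
LINC00173: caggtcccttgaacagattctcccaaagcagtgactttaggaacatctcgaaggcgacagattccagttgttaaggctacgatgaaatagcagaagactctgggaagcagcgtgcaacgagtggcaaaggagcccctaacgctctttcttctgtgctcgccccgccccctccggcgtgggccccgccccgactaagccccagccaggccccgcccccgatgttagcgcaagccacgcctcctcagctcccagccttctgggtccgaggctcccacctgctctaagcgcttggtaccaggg
LINC00346: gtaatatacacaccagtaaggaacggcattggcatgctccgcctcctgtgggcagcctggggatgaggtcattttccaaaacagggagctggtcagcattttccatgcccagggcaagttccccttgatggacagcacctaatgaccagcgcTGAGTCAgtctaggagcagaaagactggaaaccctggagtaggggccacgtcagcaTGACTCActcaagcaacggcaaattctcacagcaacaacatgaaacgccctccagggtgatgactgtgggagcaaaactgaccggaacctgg
LINC01021: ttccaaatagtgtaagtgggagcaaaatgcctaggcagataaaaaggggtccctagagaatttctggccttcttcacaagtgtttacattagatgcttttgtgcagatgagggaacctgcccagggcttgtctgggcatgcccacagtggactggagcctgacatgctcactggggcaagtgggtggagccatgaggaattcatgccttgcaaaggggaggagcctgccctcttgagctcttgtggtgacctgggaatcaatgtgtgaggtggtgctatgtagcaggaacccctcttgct
LINC01268: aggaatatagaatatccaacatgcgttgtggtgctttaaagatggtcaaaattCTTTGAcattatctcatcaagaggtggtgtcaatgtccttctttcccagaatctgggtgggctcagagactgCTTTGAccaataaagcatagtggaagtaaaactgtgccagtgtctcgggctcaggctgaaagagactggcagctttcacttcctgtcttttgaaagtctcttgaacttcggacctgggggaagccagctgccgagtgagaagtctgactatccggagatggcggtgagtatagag

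The searched motifs were about as frequent in member promoters as in all promoters. The RefSeq table of promoters held 111 of the 140 members. The AP-1 motif, bound by FOS and JUN proteins, was in 8.11% of member promoters and in 7.76% of the 27305 promoters of the table. For the TEAD motif GGAATG, bound by the partners of YAP, the shares were 11.7% and 14%, for CTTTGA 10.8% and 13.1%, and for the TATA box TATAAA 12.6% and 12%. By call, the TEAD motif was in 4 of 52 promoters of members higher in ROBO1pos (7.69%). It was in 2 of 35 for ROBO1neg (5.71%) and in 7 of 24 not called (29.2%). For the AP-1 motif these shares were 5.77%, 14.3% and 4.17%, for CTTTGA 11.5%, 5.71% and 16.7%, and for TATAAA 9.62%, 14.3% and 16.7%. The groups are small. The 2 strands were searched, and the 4 motifs do not contain each other. The median number of CpG dinucleotides was 19 in member promoters and 14 in all promoters. Of the 22 members called at a difference of 8-fold or more, 16 had a promoter in the table, with a median of 8.5, against 20 in the other 95. The LINC01021 promoter held 0, those of LINC01268 and LINC00346 held 6 and 7, and that of LINC00173 held 18. These are counts of letters, with no test.

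Counts on genes ranged from 23228686 to 29539100 per library. ROBO1 itself, the receptor used for sorting, was at 400 to 462 CPM in the ROBO1pos libraries and at 5.63 to 9.04 in the ROBO1neg libraries. Reads aligned to several places, which the gene counts leave out, made up 24.2% to 26.2% of the reads listed in ROBO1pos and 20.5% to 21.5% in ROBO1neg. Their part in the results was not tested. The epithelial markers EPCAM and KRT8 were at 680 ± 22.9 and 2160 ± 190 CPM in ROBO1pos and at 303 ± 12.8 and 3750 ± 491 in ROBO1neg (SD, n = 5). Of 9 epithelial markers, KRT20 was at 0 in every library. VIL1, at 503 ± 23.3 against 27.7 ± 3.14 CPM, and CDX1, at 0.744 ± 0.289 against 0.0306 ± 0.0424, were higher in ROBO1pos. KRT18, KRT19 and CDH1 were higher in ROBO1neg, and CDX2 was at 28.8 ± 7.14 and 30.0 ± 7.43. The 12 leukocyte markers summed to 10.7 to 12.7 CPM in ROBO1pos and 7.64 to 9.3 in ROBO1neg, with PTPRC at 6 and 0 counts and FCGR3A and TYROBP at 0. CD8A, at 6.42 ± 0.448 against 2.27 ± 0.330 CPM, made up most of that sum in ROBO1pos, and CD4 went the other way, at 1.31 ± 0.275 against 2.61 ± 0.515. The 9 fibroblast markers summed to 10.4 to 14.1 and 14 to 22.7 CPM, with COL3A1 at 0 in every library. COL1A1 was at 4.87 ± 0.702 against 14.3 ± 2.65 CPM, while COL1A2, at 1.97 ± 1.53 against 0.353 ± 0.172, and LUM, at 3.73 ± 1.79 against 0.0309 ± 0.0427, were higher in ROBO1pos. The 6 endothelial markers summed to 0.504 to 0.889 and 2.43 to 4.36 CPM, most of it VWF, with PECAM1 at 3 and 1 counts. The 5 erythroid markers summed to at most 0.697 CPM, with HBB at 0 in every library. The part of these markers in the results was not tested.

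Expression of the 140 RNAs differed between the populations about as often as that of other genes. With the quasi-likelihood test of edgeR, Benjamini-Hochberg adjusted over all 14932 genes tested and read at a threshold of 0.05, 111 of 140 members were called (79.3%). Of all genes tested 82% were called, and of those with the members' minimum count 83%. Higher in ROBO1pos were 64 members (45.7%, against 41.8% of genes with that minimum), and higher in ROBO1neg were 47 (33.6%, against 41.2%). The median log2 fold change, ROBO1pos minus ROBO1neg, was 0.21 for the members and 0.013 for those genes.

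The size of the differences lay further apart from the background than their frequency. At least 2-fold higher in ROBO1pos were 30 members (21.4%, against 11.9%), and at least 2-fold higher in ROBO1neg were 25 (17.9%, against 16%). At least 8-fold higher were 12 members in ROBO1pos (8.57%, against 3.1%) and 10 in ROBO1neg (7.14%, against 4.54%). The median size of the log2 fold change was 0.79 for the members and 0.55 for the genes with their minimum. The libraries of the populations did not overlap for 90 members (64.3%, against 73.1%). The members had a median of 927 counts over the 10 libraries, with fewer than 1000 for 73 of them, and the genes with their minimum had a median of 8295. A gene with few reads can meet the minimum through 1 population and then has to differ, as LINC01411 did with 280 and 11 counts. The sizes here are therefore a description only. Whether the minimum or the low counts set these shares was not tested. In bulk RNA, fewer cells that express a gene and less RNA per cell cannot be told apart.

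**Figure D1:**
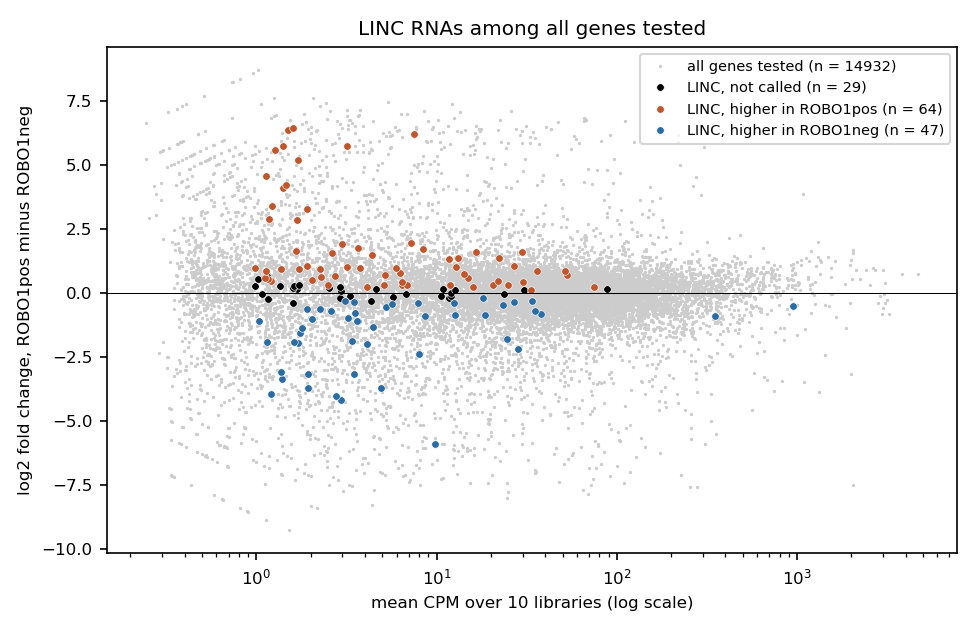
Log2 fold change (y axis, ROBO1pos minus ROBO1neg) against the mean CPM over 10 libraries (x axis, log scale) for all 14932 genes tested in grey and the 140 LINC RNAs as larger points, coloured by call. The steep differences lie among RNAs of low level, and the LINC RNAs above 100 CPM, LINC00657 and LINC00674, lie within 1 unit of 0.

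Among the members higher in ROBO1neg, LINC00173 had the steepest difference. It lies on chromosome 12 from 116533422 to 116536513. LINC00173 was at 16.6, 14.5, 24.9, 22.1 and 17.9 CPM in ROBO1neg replicates 1 to 5 and at 0.348, 0.334, 0.542, 0.162 and 0.205 CPM in ROBO1pos. The lowest ROBO1neg library was far above the highest ROBO1pos library. The log2 fold change was -5.88 (SE 0.24, edgeR quasi-likelihood adjusted p = 2.3e-11). It was the most abundant by CPM of the 8 steepest RNAs on this side.

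LINC01503 and LINC00941, both described as raised in several carcinomas, followed. LINC01503, on chromosome 9 from 129336923 to 129347477, ranged from 4.46 to 6.17 CPM in ROBO1neg and from 0.162 to 0.411 in ROBO1pos (log2 fold change -4.17, SE 0.21). LINC00941, on chromosome 12 from 30795681 to 30802711, ranged from 4.25 to 7.28 CPM in ROBO1neg and from 0.0808 to 0.465 in ROBO1pos (-4.0, SE 0.27). LINC00346 (PRECSIT), whose present name refers to regulation by p53 and activation of STAT3, averaged 2.25 ± 0.402 CPM in ROBO1neg and 0.142 ± 0.109 in ROBO1pos (SD, n = 5; -3.95, SE 0.31). The populations did not overlap for these 3 RNAs, and the highest ROBO1pos library of LINC00346, replicate 4 at 0.323 CPM, lay below the lowest ROBO1neg library at 1.78. The other 4 of the 8 steepest on this side were LINC01152 at -3.69, LINC00899 at -3.68, LINC00629 at -3.35 and LINC00494 at -3.16 (SE between 0.19 and 0.25). LINC00899 was the most abundant of these, at 9.07 ± 0.713 CPM in ROBO1neg.

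Higher in ROBO1pos, LINC01021 (PURPL) had the most reads among the 8 steepest RNAs. PURPL is known as a target of p53 that in turn keeps p53 levels low. It lies on chromosome 5 from 27472292 to 27496401. LINC01021 was at 13.4, 15.6, 17, 16 and 12.2 CPM in ROBO1pos replicates 1 to 5 and at 0.34, 0.129, 0.174, 0.205 and 0.144 CPM in ROBO1neg. The groups were far apart, with a log2 fold change of 6.20 (SE 0.19, edgeR adjusted p = 1.5e-12). The summed counts were 1896 and 25, a ratio of 76.4 after division by library totals (95% exact binomial interval 51.6 to 118, which covers counting error only).

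LINC01170 and LINC00648 had larger fold changes from fewer reads. LINC01170, on chromosome 5 from 124059794 to 124438520, was at 3.95, 2.89, 3.76, 2.75 and 2.42 CPM in ROBO1pos, and had 404 counts there and 4 in ROBO1neg. Its ratio of summed counts was 102 (95% exact binomial interval 39.4 to 375). LINC00648, on chromosome 14 from 47764953 to 47795014, had 379 and 4 counts, a ratio of 95.5 (37.0 to 352). The fitted log2 fold changes were 6.44 (SE 0.37) and 6.35 (SE 0.39), with all ROBO1pos libraries above all ROBO1neg libraries. Without ROBO1neg replicate 1, these values became 7.03 and 6.94, and that of LINC00365 went from 5.58 to 6.20. LINC01170 had 0 counts in ROBO1neg replicates 2 and 3, and LINC00648 in replicates 2, 3 and 5.

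The remaining RNAs of this group were LINC01330, LINC01268, LINC00365, LINC01254 and LINC01411. LINC01330, which RefSeq lists as the transcribed pseudogene LRRC77P, averaged 6.22 ± 1.67 CPM in ROBO1pos against 0.113 ± 0.0884 (SD, n = 5; log2 fold change 5.75, SE 0.35). LINC01268 (MROCKI), named for its link to the neighbouring MARCKS, was at 2.77 ± 0.984 against 0.0448 ± 0.0368 CPM. Its ROBO1pos libraries lay in 2 ranges, at 1.67 and 1.73 in replicates 2 and 5 and at 3.33 or more in the others. LINC00365 was at 2.50 ± 0.700 against 0.0478 ± 0.0533 CPM, LINC01254 at 3.31 ± 1.12 against 0.0851 ± 0.0255 and LINC01411 at 2.18 ± 0.407 against 0.0856 ± 0.0834. No library of ROBO1neg reached any library of ROBO1pos for these 5 RNAs.

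**Figure D2:**
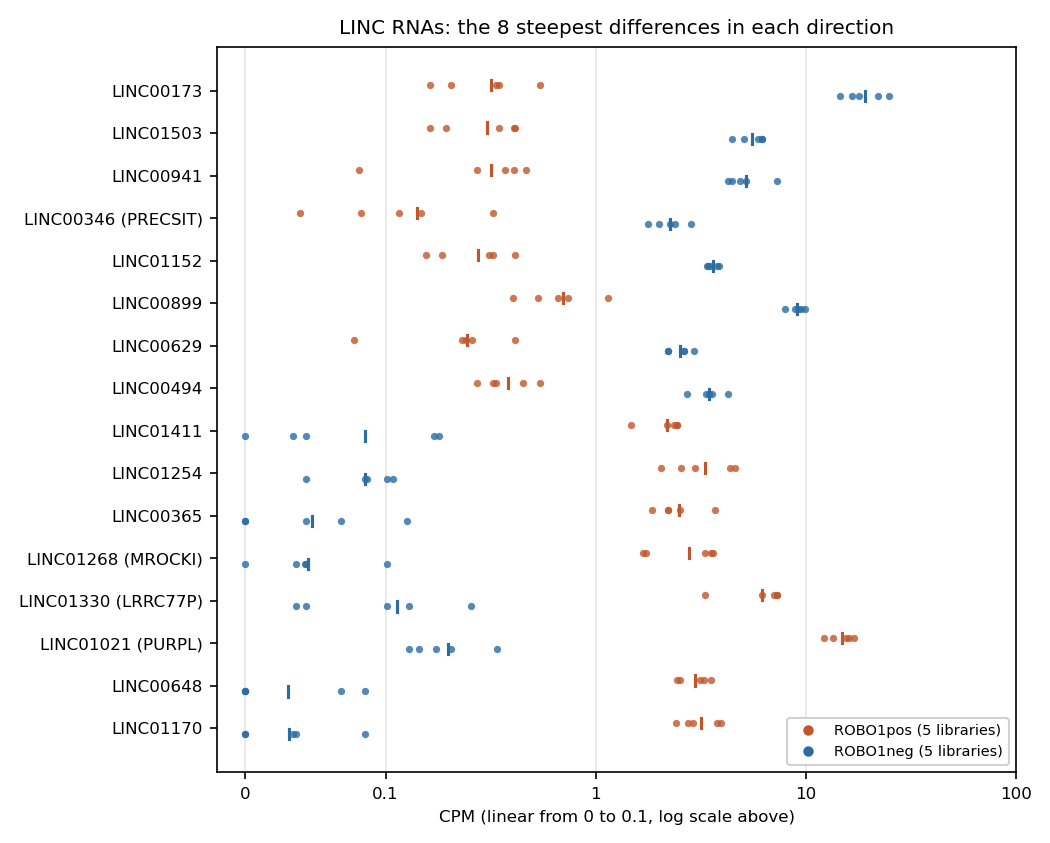
CPM per library (x axis, linear from 0 to 0.1 and log above) for the 8 LINC RNAs with the steepest differences in each direction (y axis), with 1 point per library and a bar at the mean of 5. LINC00173 at the top is at 14.5 to 24.9 CPM in ROBO1neg, LINC01021 near the bottom at 12.2 to 17 CPM in ROBO1pos, and in each row the populations do not overlap.

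The RNAs with the most reads differed far less. LINC00657 (NORAD) and LINC00674 together held 49.5% of the members' counts. NORAD, a cytoplasmic RNA known to be needed for stable chromosome numbers, lies on chromosome 20 from 36045618 to 36050960. It was at 767, 773, 787, 761 and 822 CPM in ROBO1pos replicates 1 to 5 and at 1170, 1000, 1090, 1120 and 1150 in ROBO1neg. The populations did not overlap, and the log2 fold change was -0.50 (SE 0.05, edgeR adjusted p = 1.4e-07). It did not pass a test against a difference of 1.5-fold (adjusted p = 1). Per length, NORAD was at 146 CPM per kilobase of exon in ROBO1pos and 207 in ROBO1neg, over 5339 exonic bases.

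LINC00674, on chromosome 17 from 68101555 to 68135929, was also higher in ROBO1neg. Its ROBO1pos libraries ranged from 222 to 300 CPM and its ROBO1neg libraries from 403 to 507 (log2 fold change -0.88, SE 0.08). GENCODE 29 types it as a transcribed unprocessed pseudogene, so reads may be shared with copies. LINC00673 averaged 92.7 ± 8.30 against 82.7 ± 8.44 CPM, overlapped between the populations and did not pass (0.16, SE 0.07, edgeR adjusted p = 0.057). It lay near the threshold and passed without ROBO1pos replicate 2 (adjusted p = 0.024), without ROBO1neg replicate 1 (0.026) or replicate 2 (0.048), with upper quartile scaling (0.014) and with library size only (0.034). LINC01000, at 80.3 ± 4.92 and 68.7 ± 5.92 CPM, passed with a log2 fold change of 0.23 (SE 0.06), although ROBO1neg replicate 1 at 76.3 lay among the ROBO1pos libraries.

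LINC00998, LINC00667 and LINC01578 were higher in ROBO1pos and LINC01004 higher in ROBO1neg. LINC00998 (SMIM30), which encodes a small membrane protein, was at 66.2 ± 2.16 against 40.1 ± 1.89 CPM. LINC00667 was at 66.7 ± 9.03 against 36.9 ± 1.85 CPM, with 52.1 in ROBO1pos replicate 5 and 67.6 or more in the others. LINC01004 was at 27.7 ± 5.58 against 48.2 ± 5.45 CPM. None of these 4 RNAs overlapped between the populations. LINC01578 (CHASERR), an RNA known to restrain the chromatin remodeller CHD2 whose gene lies next to it, was at 44.3 to 52.1 CPM in ROBO1pos and 22.8 to 27.3 in ROBO1neg (0.87, SE 0.07). CHD2 lies 1.58 kb away and was higher in ROBO1pos as well, at 246 ± 16.9 against 137 ± 6.83 CPM (0.85, SE 0.05). The 40 nearest tested genes around LINC01578 had a median log2 fold change of 0.77.

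In a list of 10 loci since found to encode small proteins, 5 were tested, all of them members and each under 2-fold apart. Of these, 4 were higher in ROBO1pos (80%, against 41.8% of genes with the members' minimum) and 1 in ROBO1neg (20%, against 41.2%). The median log2 fold change was 0.42, and 5 genes are too few to read a lean from. LINC00961, on the list but no member, had 0 counts in ROBO1pos and 40 in ROBO1neg and was not tested. LINC00998 had the largest, at 0.72 (SE 0.04). LINC00493 (SMIM26) was at 34.6 ± 2.91 against 25.6 ± 2.47 CPM, and LINC00467 at 7.37 ± 0.470 against 5.51 ± 1.15. LINC00116 (MTLN), which encodes the mitochondrial microprotein mitoregulin, was the one higher in ROBO1neg, at 14.1 ± 1.08 against 10.9 ± 1.28 CPM (-0.37, SE 0.09). LINC01420 (NBDY), whose product binds the mRNA decapping complex, was at 0.14 (SE 0.05). Over the 12 members that RefSeq lists as protein-coding, 7 were higher in ROBO1pos (58.3%, against 41.8% of genes with the same minimum), 4 in ROBO1neg (33.3%, against 41.2%) and 1, LINC00959, was not called. LINC00341 (-2.18), LINC00176 (1.55) and LINC01125 (1.06) were more than 2-fold apart. None of the 12 reached 8-fold, a difference that few genes reach (3.1% and 4.54%). For LINC00341 and LINC00950, the present gene, SYNE3 or TMEM8B, has a row of its own in the files, so the reads between them may be divided.

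A list of 39 RNAs described in colorectal or other cancers held 23 members. Over its 25 genes tested, calls went to ROBO1pos for 11 (44%) and to ROBO1neg for 11 (44%), near the background of 41.8% and 41.2%, and 3 were not called. Its median log2 fold change was -0.11. LINC00152 (CYTOR), described as raised in many carcinomas, was at 34.6, 42.3, 38.7, 37.7 and 38.5 CPM in ROBO1neg and at 10.5, 10.2, 10.8, 11.1 and 12.7 in ROBO1pos (-1.79, SE 0.07). The populations were far apart. Its near-identical copy MIR4435-2HG, which is listed separately, differed in the same direction (-2.49, SE 0.07), and reads shared by the copies make both counts uncertain. LINC00659 was also higher in ROBO1neg, at 5.30 ± 0.355 against 1.44 ± 0.144 CPM.

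LINC00668 and LINC00511 from the same list were higher in ROBO1pos. LINC00668, on chromosome 18 from 6925474 to 6929869, was at 12.9 ± 1.67 against 3.90 ± 0.358 CPM (log2 fold change 1.73, SE 0.11). LINC00511 was at 44.5 ± 9.71 against 14.7 ± 1.71 CPM (1.59, SE 0.14). LINC00261, a neighbour of the endoderm factor FOXA2, was at 2.07 ± 0.262 against 0.280 ± 0.170 CPM (2.88, SE 0.30). LINC00958 had 0 and 4 counts, LINC01133 0 and 1 and LINC00473 0 and 2 in ROBO1pos and ROBO1neg, too few to test. LINC01207 had 0 counts in every library. A total of 0 sets a 95% upper bound of about 3 on the expected count, here over the 10 libraries together.

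**Figure D3:**
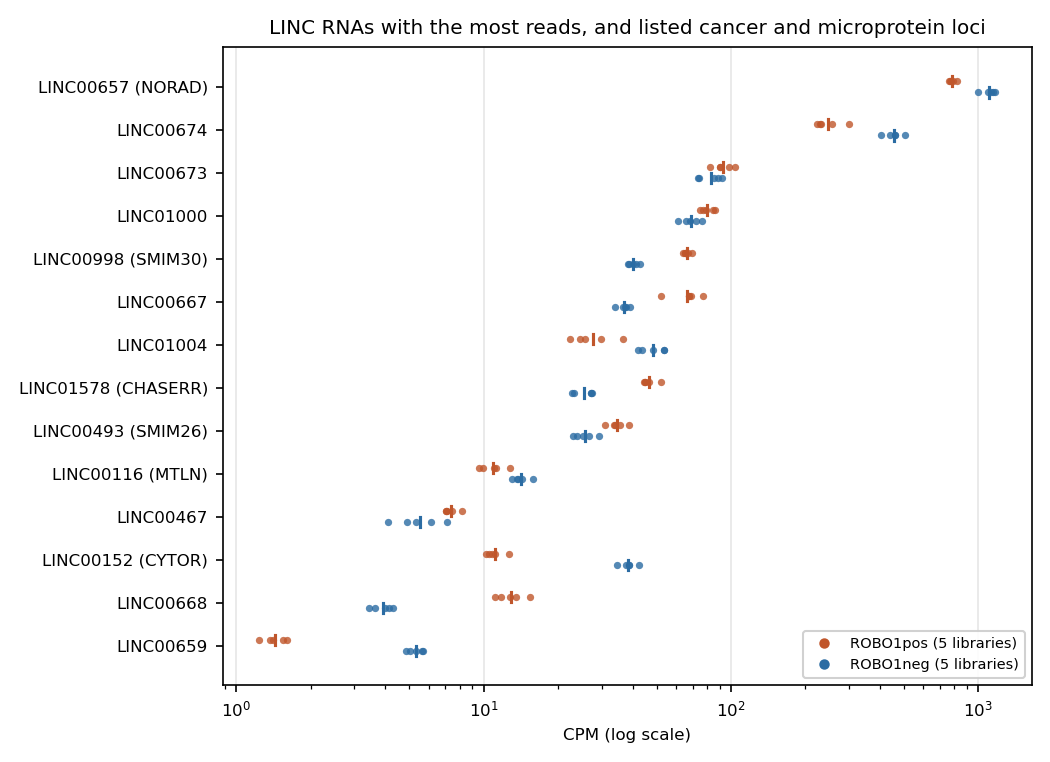
CPM per library (x axis, log scale) for the 8 LINC RNAs with the most reads and for members of the microprotein and cancer lists (y axis), with 1 point per library and a bar at the mean of 5. LINC00657 is at 761 to 822 CPM in ROBO1pos and 1000 to 1170 in ROBO1neg, LINC00673, LINC01000 and LINC00467 overlap, and LINC00152 is far apart.

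Of the 29 members not called, 4 had the smallest differences. LINC00294 averaged 23.4 ± 1.15 CPM in ROBO1pos against 23.8 ± 1.93, and the approximate 95% interval of its log2 fold change ran from -0.15 to 0.10. LINC01024 (MALINC1), named for its link to mitosis, was at 6.71 ± 0.555 and 6.83 ± 0.448 CPM (-0.20 to 0.15). LINC00997 ranged from 9.33 to 14 CPM in ROBO1pos and from 10.9 to 13.2 in ROBO1neg (-0.22 to 0.20). LINC01176 was at 1.07 ± 0.498 and 1.08 ± 0.140 CPM, with an interval from -0.55 to 0.52. Replicates 1 and 3 of ROBO1pos were at 1.51 and 1.70 and the others at 0.657 to 0.768. The approximate intervals of all 4 leave out a difference of 1.5-fold, that of LINC01176 only by little. LINC01176 is less settled than the others, since its log2 fold change moved to -0.25 without ROBO1pos replicate 3. LINC01594 passed at an adjusted p of 0.049 with overlapping libraries, and the adjusted p was 0.051 with RLE scaling and up to 0.12 when 1 library was left out (ROBO1neg replicate 5).

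The counts on members were a small part of each library. Summed over the 140, they came to 2413 ± 57.2 CPM in ROBO1pos and 2822 ± 106 in ROBO1neg (SD, n = 5), with ranges of 2327 to 2477 and 2655 to 2947. This order rested on the RNAs with the most reads. Without LINC00657 and LINC00674 the sums were 1383 ± 65.0 in ROBO1pos and 1261 ± 10.3 in ROBO1neg.

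Members were then set beside the nearest tested protein-coding gene on GRCh38.p14, since some RNAs of this class act on a neighbour and others share its regulation. In 100 of 140 pairs the member and the gene were both called, in the same direction in 67 and in opposite directions in 33. Within a gap of 100 kb there were 111 pairs, of which 50 were called in the same direction. The others of the 67 lay further apart. Of genes with the members' minimum count 83% were called, 41.8% higher in ROBO1pos and 41.2% in ROBO1neg. The same count over pairs of other neighbouring genes is not given here, so 67 and 33 are a description only. Across the 140 pairs the log2 fold changes correlated at r = 0.43 (Spearman 0.34), a description over loci that share libraries and partly share neighbourhoods. With the median of the 40 nearest genes, r was 0.22 (Spearman 0.32). Of the 22 members that differed by 8-fold or more, 15 had a nearest gene called in the same direction. For 5 of these the gene differed by 8-fold too (LINC01021, LINC00992, LINC01139, LINC01330 and LINC00899). At least 8-fold higher were 3.1% of genes with the members' minimum in ROBO1pos and 4.54% in ROBO1neg. A gene of low level, such as CDH9 beside LINC01021, was tested through the population where it was high. These numbers are therefore a description only.

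Values are given for 5 pairs in which the RNA and the gene were higher in the same population, from 2.36 to 841 kb apart and some chosen after their values were seen. LINC01330 lies 70.4 kb from SERPINI1, the gene of neuroserpin, at 134 ± 43.0 against 4.70 ± 1.02 CPM (log2 fold change 4.84, SE 0.25). The 40 genes nearest to LINC01330 on chromosome 3 had a median of -0.91, so this pair differed from its surroundings. LINC00899 lies 62.7 kb from WNT7B, a Wnt ligand gene at 0.124 ± 0.0928 against 1.61 ± 0.596 CPM (-3.61, SE 0.45). LINC00261 lies 2.36 kb from FOXA2, which was at 24.0 ± 2.49 against 4.18 ± 0.873 CPM (2.52, SE 0.12). LINC00992 lies 841 kb from SEMA6A, a semaphorin gene at 34.8 ± 10.5 against 0.414 ± 0.174 CPM. LINC01021 lies 434 kb from CDH9, a cadherin gene at 4.09 ± 0.870 against 0.0155 ± 0.0215 CPM.

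Other members differed where the nearest gene did not, or in the opposite direction. LINC01268 lies 4.54 kb from MARCKS, which encodes an actin-regulating substrate of protein kinase C and was at 63.7 ± 4.70 and 60.9 ± 5.71 CPM (0.06, SE 0.07, edgeR adjusted p = 0.40). LINC01503 lies 159 kb from IER5L, at 0.09 (SE 0.07, adjusted p = 0.23). LINC01254 was higher in ROBO1pos, while APCDD1, a Wnt antagonist gene 40.3 kb away, was at 1131 ± 189 CPM there and at 2153 ± 292 in ROBO1neg (-0.93, SE 0.11). LINC00365 was higher in ROBO1pos and KATNAL1, of a microtubule-severing family, was higher in ROBO1neg (-1.57, SE 0.07). LINC00941 and CAPRIN2, and LINC00494 and the Rac activator PREX1, also went in opposite directions, with the genes at 0.31 (SE 0.08) and 0.83 (SE 0.10).

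The nearest genes of the other steep members differed less than the RNA. MAP1LC3B2, an autophagy gene beside LINC00173, was at -0.90 (SE 0.08), and SOX9, a transcription factor of intestinal stem and Paneth cells beside LINC01152, was at -0.58 (SE 0.07). ANKRD10 beside LINC00346 was at -0.25 (SE 0.05), and PLAC1 beside LINC00629 was at -1.81 (SE 0.25). The homeobox gene MSX2, 197 kb from LINC01411, was at 2.09 (SE 0.07), and ZNF608, 198 kb from LINC01170, was at 0.59 (SE 0.12). RPS29, the nearest tested gene to LINC00648 at 1780 kb, was at 1.04 (SE 0.06). All 7 had the sign of the RNA beside them.

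**Figure D4:**
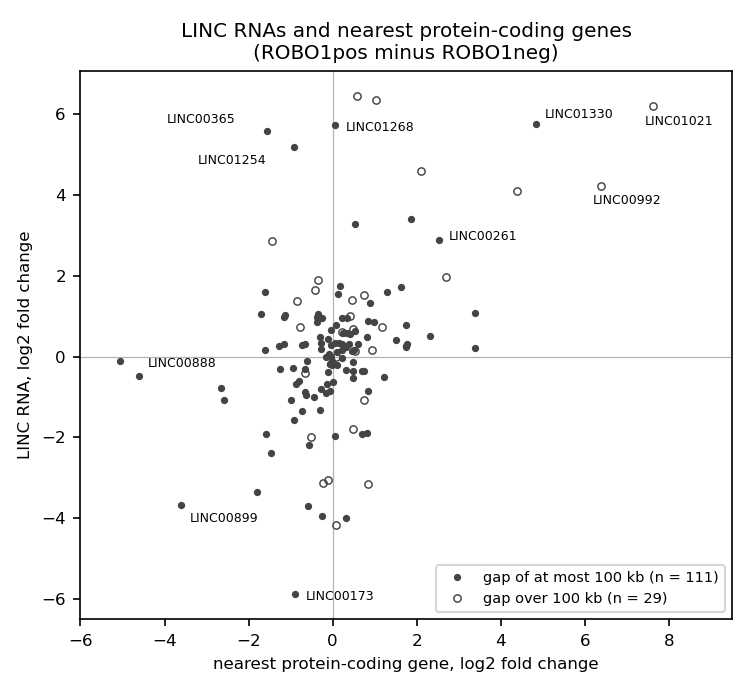
Log2 fold change of each of the 140 LINC RNAs (y axis) against that of its nearest tested protein-coding gene (x axis), ROBO1pos minus ROBO1neg, with filled points for gaps of at most 100 kb and open points for wider gaps. LINC01021, LINC01330 and LINC00992 lie at the upper right and LINC00899 at the lower left, whereas LINC01268 at 5.73 lies above a gene at 0.06.

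By chromosome, the members leaned the way the other genes did on some chromosomes and not on others. On chromosome 18, 6 of 6 members were higher in ROBO1pos, with log2 fold changes from 0.86 to 5.18. The 203 genes tested there had a median of 0.75, and 74.9% of them were above 0, called or not. Exons of LINC00526 and LINC00667 overlap on opposite strands in GENCODE 29, so these members may share reads. Around LINC00909 (ZNF407-AS1) and LINC00669 (MIR924HG) the 40 nearest genes had medians of 1.07 and 1.14. Around LINC00526, LINC00667, LINC00668 and LINC01254, which lie between 5236724 and 10414370, they had medians from -0.09 to 0.06. LINC00909 was at 16.7 ± 0.687 against 6.62 ± 0.170 CPM and LINC00669 at 11.4 ± 1.66 against 2.92 ± 0.241. On chromosome 3, 5 of 6 members were higher in ROBO1neg, with LINC01330 the exception. The 821 genes tested there had a median of -0.58, and 24.6% of them were above 0. On chromosome 5, 8 of 11 members were higher in ROBO1pos and 0 in ROBO1neg. The 669 genes tested there had a median of 0.16, and 58.3% of them were above 0. LINC00992, LINC01021, LINC01170 and LINC01411 are 4 of the 8 members. The shares above 0 include genes not called, so the calls of members cannot be set against them. The medians of the members were 1.53 on chromosome 18, -0.66 on chromosome 3 and 0.48 on chromosome 5. On chromosome 13 the median of the 5 members was 0.17, against -0.53 over the 272 genes tested. On chromosome 21 that of the 3 members was -0.63, against 0.18 over 146 genes.

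**Figure D5:**
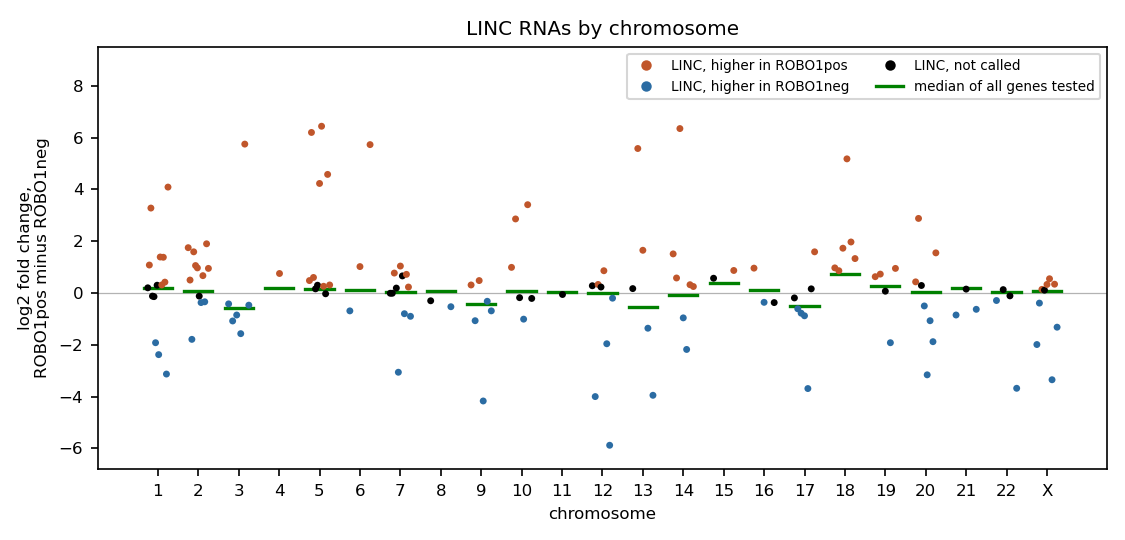
Log2 fold change (y axis, ROBO1pos minus ROBO1neg) of each LINC RNA by chromosome (x axis), in order of start position within a chromosome and coloured by call, with a green line at the median of all genes tested there. The 6 points of chromosome 18 lie above 0, and on chromosome 3 LINC01330 stands alone above 0.

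Gene models limit some of these counts. In GENCODE 29, to which 130 members were matched, exons of 20 members overlapped exons of another gene on the same strand and those of 42 did so on the other strand. LINC01578, LINC00493, LINC00152 and LINC01176 are among the first group, and LINC00667, LINC01152, LINC01330, LINC00294 and LINC00668 among the second. The sources used here do not state that strand was used in counting, so reads of a member and a gene on the other strand may not be separated. The exons of the 116 matched long non-coding RNAs covered a median of 3079 bases.

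Other long non-coding RNAs, named differently, gave a setting for the members. Of 24 snoRNA host genes tested, transcripts that carry small nucleolar RNAs in their introns, 19 were higher in ROBO1pos (79.2%, against 41.8% of genes with the members' minimum) and 3 in ROBO1neg (12.5%, against 41.2%), and the median log2 fold change was 0.77, against 0.019 over all genes tested. EPB41L4A-AS1 was at 68.6 ± 8.79 against 18.5 ± 1.33 CPM and SNHG6 at 90.6 ± 9.14 against 34.3 ± 1.84, whereas SNHG18 had 4 counts in ROBO1pos and 392 in ROBO1neg. Of 37 genes tested in a further list of long non-coding RNAs, 12 were higher in ROBO1pos (32.4%) and 15 in ROBO1neg (40.5%). The background was 41.8% and 41.2%, and the median of the list was -0.07. MIR4435-2HG is on both this list and the cancer list. FIRRE, an X-linked RNA of nuclear organisation, was at 39.7 ± 4.36 against 4.24 ± 0.618 CPM. HOTAIR, an RNA of the HOXC locus, was at 8.76 ± 0.887 against 46.0 ± 0.820 CPM, and LINC-PINT, whose symbol has no digits and so is no member, was at 3.11 ± 0.457 against 23.5 ± 1.33.

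For genes that degrade or bind nuclear RNA, the shares called stand beside the same background of 41.8% and 41.2%. Of 27 genes of the nuclear exosome and its adaptors, which trim and degrade many non-coding transcripts, 11 were higher in ROBO1pos (40.7%) and 11 in ROBO1neg (40.7%), with a median of -0.02. The catalytic subunit gene EXOSC10 was at 138 ± 2.49 against 76.6 ± 1.17 CPM, and C17orf85, a cap-binding protein gene now named NCBP3, was at 60.0 ± 1.80 against 105 ± 3.39. Of 17 tested genes of m6A methylation and nuclear RNA binding, 8 were higher in ROBO1pos (47.1%) and 5 in ROBO1neg (29.4%), with a median of 0.08. HNRNPU was at 1110 ± 86.9 against 773 ± 21.2 CPM and the m6A writer component ZC3H13 at 111 ± 5.31 against 179 ± 9.24.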

How the data were processed

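Polyadenylated RNA of 10 libraries was sequenced with a stranded kit, per the labels' protocols. What was deposited is 1 table of whole-number read counts by gene symbol for each library, neither normalised nor pooled. The submitters' processing notes name GRCh38, DESeq2 1.24.0, SAMtools 1.9 and STAR 2.6.0c. Which program counted the reads, with what annotation and strand setting, is a point not given in the sources at hand. Library sizes and tests exclude the 5 entries without a gene name: reads with no feature were 14.1% to 16.7% of the reads listed per library, reads aligned to several places 20.5% to 26.2% and ambiguous reads 0.806% to 0.881%.

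Counts were fitted with edgeR 4.0.16 in R 4.3.3 (filterByExpr defaults, TMM scaling, quasi-likelihood test with group as the only term, Benjamini-Hochberg adjustment over 14932 genes, threshold 0.05). The fit was also run on simulated counts with known changes and the same spread setting for every gene. That run does not cover RNAs with a wider spread, and no result here rests on it. Each SE is the fitted coefficient divided by the square root of its F. CPM used the scaled library sizes. Alternatives were other scalings, other filters, DESeq2 1.42.0, limma-voom (limma 3.58.1), each library left out, the replicate number as a block and a test against 1.5-fold. Positions and promoters came from RefSeq (GRCh38.p14) and exons from GENCODE 29. Chi-square per degree of freedom between libraries of a group was 3.55 to 22, so no pair was a duplicate.

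Members and lists were chosen with earlier results of these data known. Named were the 8 largest and 8 smallest log2 fold changes among called members with at least 1 CPM and no overlap, and their nearest genes; the 8 with the most reads; up to 5 per member list and 4 per other list by adjusted p; the 4 smallest differences; the 3 widest gaps; and those next to the minimum. LINC00261, LINC00992, LINC00511, LINC00341, LINC00950, LINC00176, LINC01125, LINC00959, LINC00961, LINC01420, the members of chromosome 18, LINC00958, LINC01133, LINC00473, LINC01207, the CHD2 pair, LINC01139, the printed promoters, the 8-fold counts with their CpG split and the median of the 40 nearest genes were chosen after values were seen. Items withheld for evaluation are not reported here.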

Additional observations from a re-analysis of the deposited data

Results flagged for a closer look

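Among the 38 members named by the rule, each population's 5 libraries were searched for 1 library that lay far from the others relative to the whole range (Dixon's criterion at 95%), and 6 of the 76 groups were flagged. Chance flags about 1 in 20 groups, but 3 of the members, LINC00957, LINC01521 and LINC01594, were named for their wide gaps and give 3 of the 6 flags, so the count cannot be set against that rate. In ROBO1pos, replicate 5 was the library set apart in 4 cases. LINC01411 was at 1.48 CPM there and at 2.18 to 2.45 in the other ROBO1pos libraries, LINC01330 at 3.33 against 6.2 to 7.27, and LINC01594 at 0.616 against 1.33 to 1.59, whereas LINC01578 was at 52.1 against 44.3 to 46.4. In ROBO1neg, replicate 3 was set apart for LINC00957, at 1.95 CPM against 1.29 to 1.44, and for LINC01521, at 10.7 against 12.1 to 12.6. Without ROBO1pos replicate 5, 67 members passed toward ROBO1pos and 46 toward ROBO1neg, and LINC01521 passed (log2 fold change 0.20, edgeR adjusted p = 0.024).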

How the results depend on the processing

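Against 64 members higher in ROBO1pos and 47 in ROBO1neg, the counts were 31 and 23 with a filter of 5 CPM in 5 libraries, which leaves 65 members tested, and 32 and 22 with a minimum of 1000 summed counts, both by testing fewer members. A minimum of 100 summed counts gave 89 and 65, and the non-coding members alone gave 57 and 43. The test against 1.5-fold called 40 and 33. Over the other scalings, filters, DESeq2 and limma-voom the counts stayed within 60 to 70 and 44 to 47, and with 1 library left out within 60 to 67 and 44 to 47. No called member changed sign in any of these fits. The median log2 fold change ran from 0.146 (5 CPM filter) to 0.273 (upper quartile scaling). Without the member with the most counts, LINC00657, the summed CPM was 1631 in ROBO1pos and 1716 in ROBO1neg. The smallest differences changed sign: with upper quartile scaling LINC00997 and LINC01176 were at 0.05 and LINC00294 and LINC01024 at 0.04, and with library size only LINC00997 and LINC01176 were at 0.01. With 1 library left out, LINC00997 ran from -0.08 to 0.06, LINC01176 from -0.25 to 0.11, LINC00294 from -0.06 to 0.01 and LINC01024 from -0.08 to 0.00. The cause was not tested.

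The replicate numbers were not taken as a pairing: the deviations of same-numbered libraries correlated at 0.062 to 0.169, not all over 0.1, although each ROBO1pos library correlated best with its own number (5 of 5). With the replicate block, 64 members were higher in ROBO1pos and 46 in ROBO1neg, with 108 calls kept, 3 lost and 2 gained. Depth limits the steepest ratios, whose lower population had as few as 4 counts.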
